A study of Mus musculus with 2 samples.

Results

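The cells described here are the cardiac macrophages that carried RNA of the MHC class II genes or of Ccr2, the chemokine receptor of monocytes. They were chosen by measured values: a cell had at least 200 detected genes, under 0.6% of its UMIs from the cardiomyocyte genes Ryr2 and Myh6, and at least 3 UMIs summed over the macrophage genes F13a1, Mrc1, Adgre1, Csf1r and Cd163. That sum was also at least 3 times the sum of the fibroblast genes Pdgfra, Col1a2 and Col3a1 and at least 3 times the sum of the endothelial genes Flt1, Cdh5 and Kdr. Finally, the cell held at least 2 UMIs summed over Cd74, H2-Aa, H2-Ab1, H2-Eb1 and Ccr2. A UMI (unique molecular identifier) tags 1 captured RNA molecule, so UMIs count molecules rather than PCR copies. Of 19865 cells, 776 met the rule (members in the plots), 351 of 9934 in the Sham library and 425 of 9931 in the TAC library. The macrophages that passed every other step but held fewer than 2 UMIs of the class II genes and Ccr2, 999 in Sham and 906 in TAC, are called class II low macrophages and serve as the comparison.

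The data were droplet single-cell RNA libraries of dissociated hearts from C57BL/6 mice, 1 library from Sham mice and 1 from mice with transverse aortic constriction (TAC), a narrowing of the aortic arch that overloads the left ventricle. TAC was done in male mice aged 8 weeks and lasted 6 weeks, whereas the Sham label gives the same operation without the constriction and no age. The design text of the series differs from that label in naming the comparison mice uninjured. Each library pooled 3 to 5 hearts, so the animals cannot be separated, the condition and the library cannot be told apart, and no difference below has a replicate check or a test. Intervals are 95% intervals that cover counting error only.

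MHC class II molecules present peptides from taken-up proteins to CD4 T cells. Their alpha and beta chains are held by the invariant chain, Cd74, until the H2-DM complex loads a peptide, and their transcription depends on the coactivator CIITA. In the mouse heart, macrophages that settled early in life renew locally, and many of them express Timd4, Lyve1 and Folr2 with little class II. Macrophages with CCR2 are replaced from blood monocytes, and class II is found on cells with and without CCR2.

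The promoters of class II genes share a short inverted CCAAT motif, the Y box, that is bound by the trimeric factor NF-Y. The 3 windows below show it for H2-Aa and H2-Eb1, which helped to choose the cells, and for H2-DMb1, which did not and yet differed most from the class II low macrophages in Sham among the genes of the presentation list. Each window runs from 250 bases before to 50 bases after the RefSeq start of the gene, on the strand of the gene and on build GRCm38.p6, with every ATTGG and CCAAT in capitals. H2-Aa lies on the minus strand at chr17:34287774-34288073, H2-Eb1 on the plus strand at chr17:34305617-34305916 and H2-DMb1 on the plus strand at chr17:34152941-34153240.
H2-Aa: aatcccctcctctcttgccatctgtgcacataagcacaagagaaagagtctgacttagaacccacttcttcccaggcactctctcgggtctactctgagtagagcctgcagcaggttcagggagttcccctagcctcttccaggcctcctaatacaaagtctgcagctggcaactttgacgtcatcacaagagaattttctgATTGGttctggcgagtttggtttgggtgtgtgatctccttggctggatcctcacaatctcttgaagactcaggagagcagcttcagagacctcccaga
H2-Eb1: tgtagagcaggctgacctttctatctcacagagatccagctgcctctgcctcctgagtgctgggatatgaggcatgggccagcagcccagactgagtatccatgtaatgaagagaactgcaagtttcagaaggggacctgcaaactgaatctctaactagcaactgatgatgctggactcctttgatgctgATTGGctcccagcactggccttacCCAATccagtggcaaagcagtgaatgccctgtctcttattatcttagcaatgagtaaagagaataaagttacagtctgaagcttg
H2-DMb1: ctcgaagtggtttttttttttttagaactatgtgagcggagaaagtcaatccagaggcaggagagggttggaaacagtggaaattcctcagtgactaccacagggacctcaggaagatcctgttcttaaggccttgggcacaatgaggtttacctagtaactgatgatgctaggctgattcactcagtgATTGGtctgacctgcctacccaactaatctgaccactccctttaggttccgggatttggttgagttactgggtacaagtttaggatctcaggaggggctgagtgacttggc

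Each of the 3 windows held ATTGG once on the strand of the gene, 48, 59 and 61 bases before the start in the order above, and in each the match was part of TGATTGG. H2-Eb1 held a CCAAT as well. Over 32851 windows of the same length, 37.4% held ATTGG on either strand (that is, ATTGG or CCAAT) and 7.82% held TGATTGG or its reverse complement CCAATCA, with 4.01% holding TGATTGG on the strand of the gene. ATTGG is contained in TGATTGG, so both searches count the same positions. A match in these letters is a description and not a bound site.

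The share of gated macrophages that carried class II or Ccr2 RNA was 26.0% (23.7 to 28.4%, 351 of 1350 cells) in Sham and 31.9% (29.4 to 34.5%, 425 of 1331) in TAC. As a share of all cells it was 3.53% (3.18 to 3.92%) and 4.28% (3.89 to 4.70%). The TAC library had the larger share on both counts, and the intervals did not overlap for the share of macrophages. Its macrophages also held more UMIs per cell, with a median of 1681 in the chosen cells against 1492 in Sham, and 1825 against 1430 in class II low macrophages. When every cell was thinned to 1000 UMIs and the whole rule was applied again, the shares of macrophages were 17.0% (14.8 to 19.5%, 172 of 1009) and 20.7% (18.3 to 23.2%, 223 of 1078), whose intervals overlapped. When the gated macrophages were kept and only thinned, 17.6% (15.4 to 20.1%) of 1054 Sham cells and 22.1% (19.7 to 24.6%) of 1160 TAC cells still held 2 UMIs, and again the intervals touched. A further alternative left out every cell with a UMI of 1 of the B cell, T cell or dendritic cell markers, Bank1 included, and gave 25.5% and 34.1% of macrophages but 2.39% and 2.34% of all cells, so that the share of all cells was no longer larger in TAC. Bank1 itself was higher in TAC, with a ratio of 1.63 (1.40 to 1.90) in the chosen cells and 1.68 in class II low macrophages. With only the lineage-restricted genes among these markers, a choice made after the data were seen, the shares were 25.1% and 30.9% of macrophages and 3.39% and 4.20% of all cells. The thinning left out 296 Sham and 171 TAC macrophages with fewer than 1000 UMIs.

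Other cell types, in which such UMIs may be free RNA of the droplets, held them in a smaller share of cells. Among 1167 Sham fibroblasts with a median of 2706 UMIs, 4 (0.343%, 0.0935 to 0.875%) held 2 or more UMIs of the class II genes and Ccr2, and among 1252 TAC fibroblasts with a median of 2574 UMIs, 3 did (0.240%, 0.0494 to 0.699%). The share was 1.25% and 1.05% in Sham and TAC cardiomyocytes (median 4454 and 4996 UMIs), 0.705% and 0.0624% in endothelial cells (1318 and 1421 UMIs), and 1.84% and 1.43% in all cells outside the gated macrophages, which include other immune cells. At 1000 UMIs per cell, 1 of 1139 and 1 of 1237 fibroblasts did. The plot of class II and Ccr2 UMIs per cell shows this difference between the cell classes. It shows too that macrophages had no gap at the limit of 2: 791 Sham macrophages held no such UMI, 208 held 1, 97 held 2, and the highest cell held 17 (33 in TAC). The chosen cells are therefore a range of a graded count and not a set apart.

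**Figure D1:**
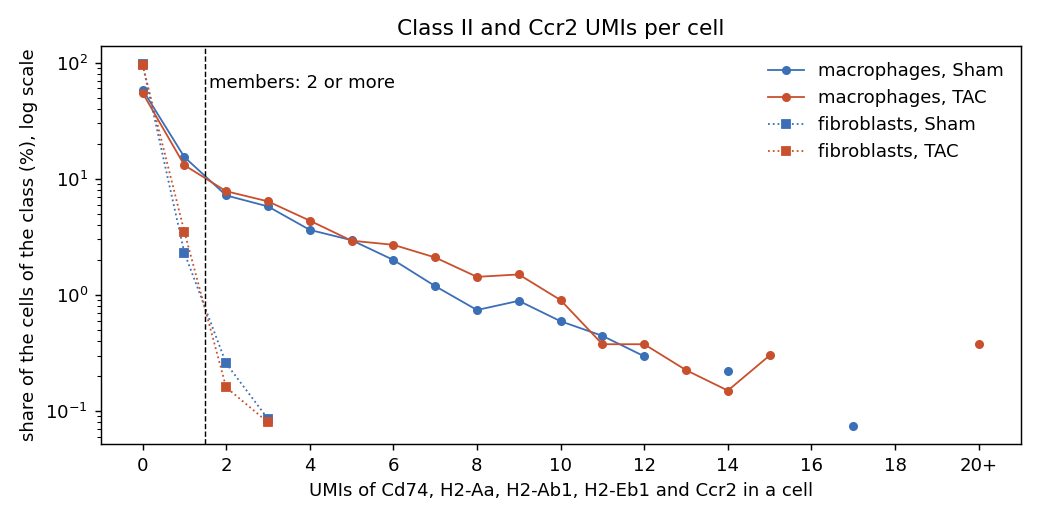
Share of gated macrophages (circles, solid lines) and fibroblasts (squares, dotted lines) of the Sham (blue) and TAC (red) libraries by the number of UMIs of Cd74, H2-Aa, H2-Ab1, H2-Eb1 and Ccr2 in a cell, with the share in percent on a log scale and 20 or more in the last place. Macrophages fall off gradually past the dashed limit, whereas fibroblasts with 2 or more are 0.343% of Sham and 0.240% of TAC fibroblasts.

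The genes that chose the cells are given as a description. Levels are given as CPM, the UMIs of a gene per 1000000 UMIs of all cells of a class. Cd74, the invariant chain, led them at 1151 CPM in Sham (1067 to 1239) and 1205 in TAC (1132 to 1282), and was seen in 296 of 351 and 377 of 425 cells. The class II chains came next, H2-Eb1 at 467 and 492, H2-Aa at 379 and 317, and H2-Ab1 at 343 and 325 CPM in Sham and TAC. Ccr2 stood at 173 (142 to 209) and 201 (171 to 233). The cells held 2.18% of the UMIs of the Sham library and 2.88% of those of the TAC library, but 58.7% and 67.7% of the Cd74 UMIs and 56.7% and 57.5% of the Ccr2 UMIs.

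Most of the cells were chosen through class II. In Sham, 303 cells held at least 2 class II UMIs and no Ccr2, 37 held both, and 11 came in through Ccr2 with fewer than 2 class II UMIs. The TAC counts were 364, 52 and 9. All 4 class II genes were seen together in 33 Sham cells (9.40%) and 53 TAC cells (12.5%), and Cd74 was the only class II gene seen in 60 and 82 cells. With medians of 1492 and 1681 UMIs per cell, a gene that was not seen cannot be read as absent.

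The macrophage genes of the rule are given as a description, and their presence is no check of the label. F13a1, which encodes coagulation factor XIII A, was seen in 81.5% (Sham) and 81.6% (TAC) of cells, the mannose receptor Mrc1 in 81.8% and 86.6%, Adgre1 (F4/80) in 75.8% and 71.8%, and the CSF1 receptor Csf1r in 64.7% and 60.2%. Markers outside the rule that define circulating monocytes were at or near 0, and of Ly6c2, Plac8, Chil3 and Hp together the cells held 1 UMI in Sham and 3 in TAC. Vcan, a proteoglycan also made by monocytes, had 29 UMIs in Sham, of which 20 lay in 1 cell, and 11 in TAC, of which 9 lay in 1 cell.

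Markers of other class II cells were sparse. For dendritic cells, Xcr1 had no UMI in either library, Clec9a had 4 and 3 UMIs, Cd209a 1 and 4, Itgae 1 and 0, and Itgax 3 and 9, while Zbtb46, a transcription factor of classical dendritic cells, had 33 and 30, Kmo 52 and 63 and Batf3 24 and 51. The cytokine receptor Flt3 had 16 UMIs in 13 Sham cells and 3 UMIs in 3 TAC cells. Summed, the 9 dendritic cell markers stood at 219 (Sham) and 195 (TAC) CPM against 175 and 166 in class II low macrophages. Of the B cell markers, Cd79a, Cd79b, Ms4a1 and Pax5 had 0 to 8 UMIs each, and Bank1 had 254 and 565, at levels like those of class II low macrophages (ratio 0.97 in Sham and 0.94 in TAC). Among T and NK cell markers Cd3e, Cd3g, Trac, Themis and Nkg7 were at 0, and 19 of the 20 Skap1 UMIs of TAC lay in 1 cell. The neutrophil genes S100a8, Retnlg and Cxcr2 were at 0 as well, whereas Csf3r, the receptor of G-CSF, had 63 and 70 UMIs. Scrublet, which simulates doublets, marked 17 of the Sham cells (4.84%) and 18 of the TAC cells (4.24%), close to its share of all other cells (4.53% and 4.77%), and these cells were kept. The mitochondrial share of UMIs was 0.555% and 0.424%.

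At the edges of the rule, the 208 Sham macrophages with 1 class II or Ccr2 UMI held Ciita at 104 CPM and the 97 with 2 held it at 274, and in TAC the 174 cells with 1 stood at 77.5 and the 104 cells with 2 at 149. Cells that failed only by holding 2 macrophage UMIs in place of 3 numbered 22 in Sham and 18 in TAC, and 24 and 31 cells passed with 3. The sum of Cd74, H2-Aa, H2-Ab1 and H2-Eb1, without Ccr2, stood at 4017 CPM in the 22 Sham cells just outside and 2965 in the 24 just inside, and 3970 and 4121 in TAC.

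Compared with class II low macrophages of the same library, the chosen cells held more RNA of the class II machinery and less of genes known from resident macrophages. Among genes outside the rule with at least 50 UMIs over both groups, 66 of 7061 (0.935%) were past 2-fold higher in Sham and 133 (1.88%) past 2-fold lower. In TAC 105 of 7736 (1.36%) were higher and 105 (1.36%) lower. In both libraries at once, 18 of 6780 (0.265%) were higher and 23 (0.339%) lower. The median log2 ratio over all genes tested was -0.01 in Sham and 0.02 in TAC. Because the cells were chosen on co-expressed genes, these values describe them and test nothing.

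Ciita, the coactivator that class II transcription depends on, led the genes ranked by the interval bound of the library with the smaller difference. Its level was 271 CPM (231 to 315) in the chosen Sham cells against 54.7 in class II low macrophages, a ratio of 4.96 (3.83 to 6.44), and 257 (224 to 294) against 30.0 in TAC, a ratio of 8.57 (6.40 to 11.6). It was seen in 112 of 351 Sham cells and 144 of 425 TAC cells. H2-DMb1, a chain of the peptide loading complex, stood at 147 (118 to 181) against 22.8 in Sham, a ratio of 6.45 (4.40 to 9.61), and at 105 (84.3 to 130) against 19.8 in TAC, a ratio of 5.31 (3.60 to 7.95). Both genes were higher in the chosen cells of each library, with intervals wholly above 2-fold.

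The rest of the presentation list did not follow as far. Of its 23 measured genes outside the rule, 14 in Sham and 16 in TAC reached 50 UMIs, with a median log2 ratio of 0.25 and 0.07, and 2 of 14 and 3 of 16 were past 2-fold higher, none lower. The third in TAC was Icosl, the ligand of the T cell receptor ICOS, at 86.0 against 37.1 CPM (ratio 2.32, 1.65 to 3.26), with a ratio of 1.50 in Sham. Ctss, the protease that trims the invariant chain, had ratios of 1.31 and 1.48. H2-DMa, the partner chain of H2-DMb1, had 22 and 27 UMIs and ratios of 1.70 (0.957 to 2.97) and 1.38 (0.825 to 2.27), which leave 1 within the interval. The NF-Y subunits Nfya, Nfyb and Nfyc had ratios between 0.80 and 1.13, and the costimulatory ligand Cd86 1.01 and 1.35. The ubiquitin ligase Marchf1, which removes class II from the cell surface, was the most abundant gene of the list at 640 and 557 CPM, with ratios of 1.23 and 1.06. Cd80, Cd40, Cd83, Lgmn, Ctsl, Ifi30 and Rfxap had ratios between 0.655 and 1.87. The class II genes H2-Oa and H2-Eb2 were at 0 in both libraries, which allows up to 3 UMIs in each.

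Other genes set the chosen cells apart in both libraries to a similar degree. Plbd1, a phospholipase B family gene, stood at 127 and 124 CPM against 29.6 and 29.5, ratios of 4.30 (2.99 to 6.23) and 4.22 (3.03 to 5.92). Emb (embigin) had ratios of 8.02 (4.36 to 15.6) and 3.48 (2.04 to 6.03) on 42 and 37 UMIs. Ipcef1 had ratios of 2.91 and 6.54, and Cyp4f18, a hydroxylase of leukotrienes, 3.13 and 5.07. The cell adhesion gene Negr1, the C-type lectin Clec4b1, the scaffold gene Cytip, the corepressor Tle1, the Ly49 family receptor Klra2 and the receptor kinase Grk3 had ratios from 2.44 to 3.80 over both libraries.

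Among the 12 genes lowest in the chosen cells, receptors known from resident macrophages led. Colec12, a scavenger receptor, stood at 348 CPM in Sham (303 to 398) and 370 in TAC (330 to 414) against 902 and 834 in class II low macrophages, ratios of 0.39 (0.333 to 0.445) and 0.44 (0.392 to 0.502). The hyaluronan receptor Lyve1 had ratios of 0.47 (0.339 to 0.645) and 0.46 (0.371 to 0.560), and the complement receptor Vsig4 0.415 (0.275 to 0.607) and 0.31 (0.233 to 0.407). The growth factor Pdgfc (0.38 and 0.46), the exchange factor Plekhg5 (0.40 and 0.48), the endothelin receptor Ednrb (0.32 and 0.37), the death receptor Tnfrsf25 (0.36 and 0.25) and the G protein regulator Rgs7bp (0.32 and 0.22) were past 2-fold lower in both libraries. So were the calcium channel gene Cacna1a (0.36 and 0.45) and the unnamed transcript Gm15270 (0.205 and 0.315). Egfr (0.43 and 0.52) and the lipid transfer gene Osbpl9 (0.55 and 0.55) were ranked by narrow intervals and were not past 2-fold in TAC or, for Osbpl9, in either library.

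**Figure D2:**
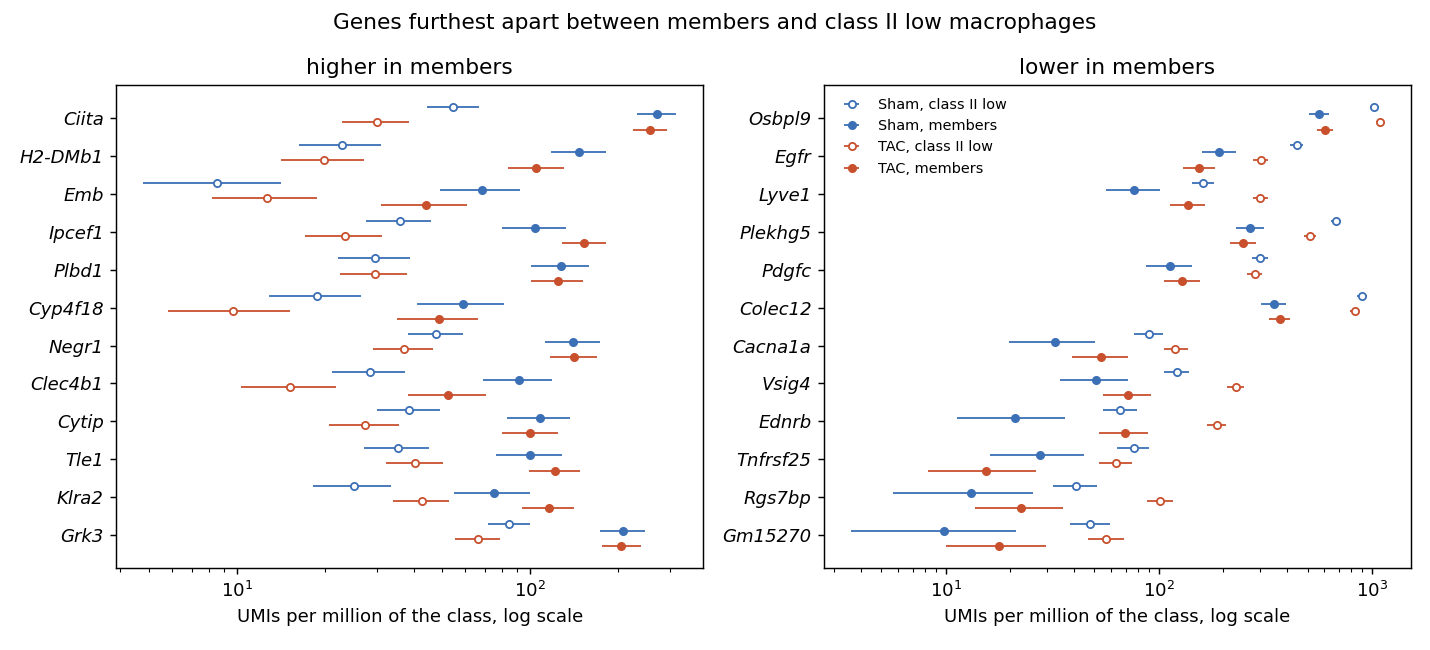
Level in CPM, on a log scale, of the 12 genes furthest above and the 12 furthest below class II low macrophages, for the chosen cells (filled) and class II low macrophages (open) of Sham (blue) and TAC (red), with exact Poisson 95% intervals. In every row the filled points of a library lie on one side of its open points, as for Ciita at 271 against 54.7 in Sham.

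As a group, the 28 resident macrophage genes outside the rule were lower in the chosen cells. Their median log2 ratio was -0.45 in Sham, over the 25 genes with 50 UMIs, and -0.38 in TAC, over 26, where 6 and 7 were past 2-fold lower and none higher. Their summed level was 12598 CPM against 15722 in Sham, a ratio of 0.80 (0.781 to 0.822), and 14666 against 18936 in TAC, a ratio of 0.77 (0.759 to 0.790). Folr2, the folate receptor of resident macrophages, had ratios of 0.515 and 0.41, and Ltc4s, the leukotriene C4 synthase, 0.37 and 0.47. Timd4, the phosphatidylserine receptor, had 0.66 (0.418 to 1.01) and 0.66 (0.514 to 0.840). These genes were lower but not absent, and Timd4 was seen in 20 of the chosen Sham cells and 58 of the TAC cells. The general macrophage genes Apoe (1.06 and 1.06), C1qb (0.90 and 1.03) and Lyz2 (0.96 and 0.87) stood close to 1, and the fractalkine receptor Cx3cr1 was higher at 1.77 (1.24 to 2.51) and 1.85 (1.42 to 2.40).

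**Figure D3:**
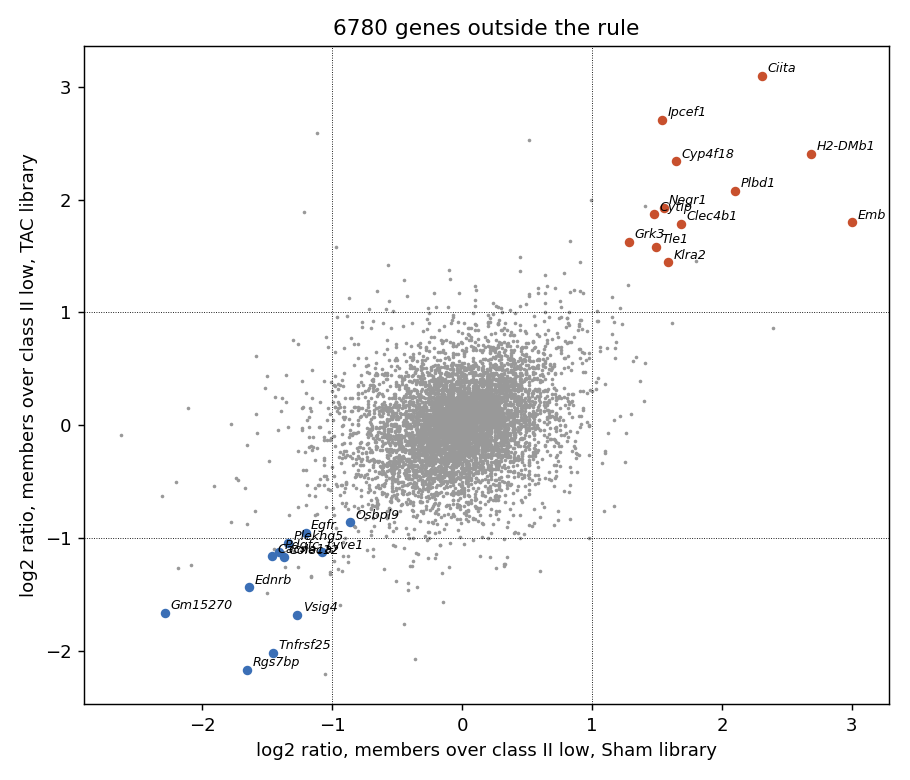
The log2 ratio of the chosen cells over class II low macrophages in the Sham library (x axis) and the TAC library (y axis) for 6780 genes outside the rule, with dotted lines at 2-fold and the 12 highest (red) and 12 lowest (blue) genes named. Ciita and H2-DMb1 lie in the upper right and Vsig4, Ednrb and Rgs7bp in the lower left, where some names overlap.

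The levels differed along the class II and Ccr2 count, below the limit as well as above it. In Sham macrophages, Ciita went from 41.7 CPM at a count of 0 to 104 at 1, 274 at 2, 207 at 3 to 4 and 321 at 5 or more. In TAC it went from 19.3 to 77.5, 149, 155 and 393. The intervals of neighbouring steps from 2 upward overlapped in Sham, and in TAC the last step stood above the others. Colec12 ran the other way, from 980 to 605, 391, 405 and 274 in Sham and from 878 to 636, 482, 368 and 310 in TAC. The summed resident macrophage genes stood at 16175 at a count of 0 and 12752 at 2 in Sham and at 19424 and 16220 in TAC, and at 12300 and 12892 at 5 or more. Lyve1 in Sham differed mainly between a count of 0 (182, 160 to 206) and 1 (87.6, 59.9 to 124), and was between 67.4 and 86.8 from there on. Cells of different counts had like depths, with medians of 1346 to 1628 UMIs in Sham and 1610 to 1874 in TAC.

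**Figure D4:**
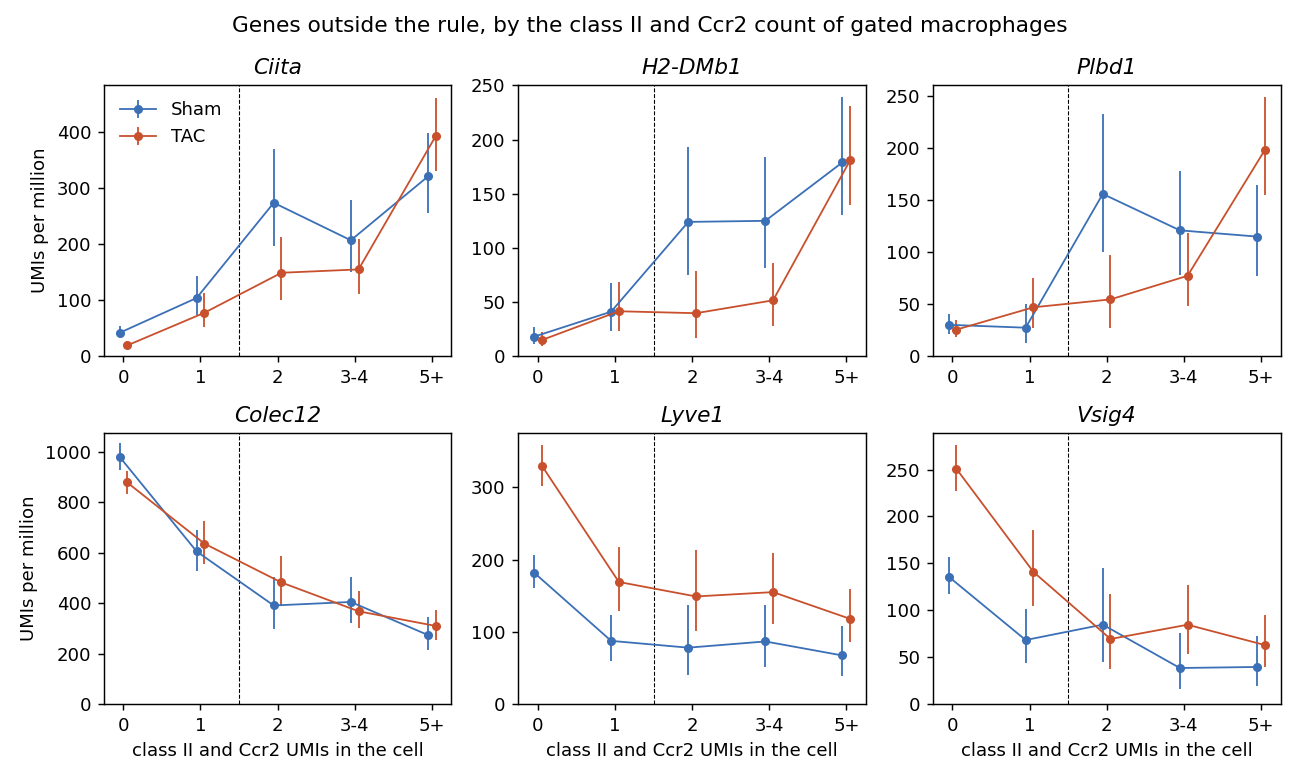
Level in CPM, with exact Poisson 95% intervals, of 6 genes outside the rule in gated macrophages grouped by their class II and Ccr2 UMIs, for Sham (blue) and TAC (red), with the limit of the rule as a dashed line. Ciita, H2-DMb1 and Plbd1 are higher and Colec12, Lyve1 and Vsig4 lower at 5 or more than at 0.

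The other lists were set against class II low macrophages in the same way. The class I presentation list had a median log2 ratio of 0.37 in Sham and 0.24 in TAC, with 0 of 13 and 1 of 13 genes past 2-fold higher, the last being the immunoproteasome subunit Psmb8 (1.70 and 2.07). In the monocyte list the medians were 0.56 and -0.06, and Cytip was past 2-fold higher in both libraries. Vcan and Ms4a4c were past it in Sham and had too few UMIs to be compared in TAC, and for Vcan the Sham ratio of 3.78 became 1.18 (0.480 to 2.68) without the cell that held 20 of its 29 UMIs. In the growth factor list (medians 0.09 and 0.00) Pdgfb was higher in Sham (2.35, and 1.86 in TAC), and Pdgfc was lower in both libraries. The CARD9 list had medians of 0.15 and -0.06. Its C-type lectins, receptors of fungal and cell debris ligands, differed in direction, as Clec7a (dectin-1) had ratios of 2.01 (1.19 to 3.33) and 3.82 (1.97 to 7.62) and Clec4d 0.41 and 0.46. Of the 21 myeloid transcription factors tested in each library (medians 0.07 and 0.18), Pparg was past 2-fold in Sham (2.25, and 1.89 in TAC), and in TAC Runx3 (2.35) and Batf3 (2.26) were higher and Tfec (0.41) was lower.

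In the cytokine and chemokine list the medians were -0.09 over 9 genes and 0.25 over 13, and Il1b (8.09, 5.48 to 12.2) and Cxcl2 (4.10, 2.59 to 6.59) were past 2-fold higher in TAC, where Il1b in Sham had 2.27 (1.17 to 4.32) on 19 UMIs. Without the cell with most Cxcl2 UMIs its TAC levels were 31.2 and 15.7 CPM, a ratio of 1.98 (1.13 to 3.45) that was no longer past 2-fold. Without the highest Il1b cell the ratios were 7.35 (4.95 to 11.2) in TAC and 1.92 (0.951 to 3.76) in Sham. The remaining lists had 0 to 2 genes past 2-fold in each library. The medians for Sham and TAC were 0.08 and -0.13 for phagocytosis, complement and lipid handling, -0.21 and -0.08 for the interferon response, 0.09 and -0.08 for glucocorticoid-induced genes, -0.29 and -0.33 for clock genes, -0.46 and 0.11 for immediate-early genes, -0.34 and 0.01 for heat shock genes and -0.33 and -0.35 for the cell cycle. Axl, the receptor for apoptotic cells, was past 2-fold higher in TAC (2.33, and 1.64 in Sham).

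Within the chosen cells, those with a Ccr2 UMI, 48 in Sham and 61 in TAC, were set against those with none. The genes named for this split were ranked after its values had been seen. The cells with Ccr2 were fewer and so held fewer UMIs in sum. Their medians per cell were 1594 UMIs against 1483 without Ccr2 in Sham, and 1674 against 1682 in TAC. A gene near the minimum of 50 thus has few UMIs in the cells with Ccr2 and its ratio varies more. How far this bears on the counts of higher and lower genes was not tested. Of 2641 genes with at least 50 UMIs over both groups in each library, 4 (0.151%) were past 2-fold higher in both libraries and 25 (0.947%) past 2-fold lower. The 4 were Negr1 at 4.64 (2.94 to 7.26) and 8.38 (5.73 to 12.3), Xylt1, which starts proteoglycan chains, at 2.67 and 3.62, the adhesion molecule Alcam at 2.35 and 2.67, and Fam111a at 2.21 and 2.33. Negr1 stood at 431 and 573 CPM with Ccr2 and at 93.0 and 68.4 without. Among the lower genes, Plekhg5 had 0.19 (0.0615 to 0.457) and 0.24 (0.101 to 0.478), the leukocyte immunoglobulin-like receptor gene Lilra5 0.31 and 0.23, Tbc1d4 0.24 and 0.34, the scavenger receptor Stab1 0.49 and 0.39 and Bank1 0.39 and 0.47.

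The cells with Ccr2 also held less of the resident macrophage genes. The summed level was 9258 CPM with and 13142 without a Ccr2 UMI in Sham, a ratio of 0.70 (0.654 to 0.758), and 8380 and 15721 in TAC, a ratio of 0.53 (0.499 to 0.569). The monocyte list summed to 968 and 826 in Sham, a ratio of 1.17 (0.916 to 1.49), and to 1536 and 755 in TAC, a ratio of 2.04 (1.71 to 2.41). The sums of the class II presentation list had ratios of 1.04 (0.899 to 1.19) and 1.02 (0.907 to 1.15). Ciita was at 1.09 (0.682 to 1.68) in Sham and 2.05 (1.48 to 2.80) in TAC. Ccr2 was part of the rule, so cells without it had to hold at least 2 class II UMIs. Cells with Ccr2 could enter with fewer, as 11 did in Sham and 9 in TAC. The ratios of class II genes and Ciita thus compare groups chosen by different limits. Among the TAC cells with Ccr2, 1 held most UMIs of the fibroblast genes C7 and Col8a1, and without it the TAC ratios were 2.14 (1.79 to 2.53) for the monocyte list, 0.531 (0.496 to 0.568) for the resident list, 2.19 (1.58 to 3.00) for Ciita and 8.21 (5.56 to 12.2) for Negr1, while Xylt1, Alcam and Fam111a had 3.95, 2.77 and 2.34. A cell without a Ccr2 UMI may still have expressed the gene below the depth of these libraries.

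Between the libraries, the chosen cells of TAC held more Il1b and Pf4 RNA and less of the glucocorticoid-induced genes, while the sum of their class II presentation genes stood close to that of Sham. Of 5291 genes with at least 50 UMIs over both libraries, 171 (3.23%) were past 2-fold higher in TAC and 83 (1.57%) past 2-fold lower, and the median ratio was 1.01. A difference between the libraries can be shared by every cell. The same ratio in class II low macrophages or in all other cells is therefore given beside many of the ratios, but not all. It is plotted for the genes furthest above and below Sham.

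The interleukin Il1b, a pyrogenic cytokine of activated monocytes and macrophages, stood at 31.0 CPM (18.7 to 48.4, 19 UMIs in 14 cells) in Sham and 140 (116 to 167, 117 UMIs in 48 cells) in TAC, a ratio of 4.51 (2.76 to 7.75). The ratio was 1.26 in class II low macrophages and 1.52 in all other cells, and the difference between these ratios was not tested. The highest TAC cell held 11 of the 117 UMIs, and without the highest cell of each library the levels were 26.2 and 127. Cells with an Il1b UMI were 3.99% (2.20 to 6.60%) of the Sham cells and 11.3% (8.45 to 14.7%) of the TAC cells, and at 1000 UMIs per cell 2.91% of 172 and 11.2% of 223. The same share was 1.50% and 2.98% in class II low macrophages, and 0.171% and 0% in fibroblasts (2 of 1167 and 0 of 1252 cells). Of the cells with Il1b, 4 of 14 in Sham and 2 of 48 in TAC also held a Ccr2 UMI, beside 13.7% and 14.4% of all chosen cells. These counts are small, and their difference was not tested.

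The chemokine Cxcl2, which draws neutrophils, had no UMI in the Sham cells and 54 in 13 TAC cells, of which 28 lay in 1 cell. Against the 3 UMIs that a count of 0 allows in Sham, the TAC level of 64.5 CPM (48.5 to 84.2) was higher, but without its highest cell it was 31.2. Of the TAC cells with Il1b, 3 also held Cxcl2. All 19 Cxcl3 UMIs of TAC lay in 1 cell. Tnf had 1 and 6 UMIs and Il6 none in either library. Over the 11 cytokines and chemokines with 50 UMIs the median log2 ratio of TAC to Sham was 0.33, with 2 past 2-fold higher (Il1b and Cxcl2) and none lower, beside 0.08 over 13 genes in class II low macrophages. Ccl9 had 1.96 (1.37 to 2.85) and Ccl6 1.51 (1.19 to 1.92), and in class II low macrophages they had 1.73 and 1.98.

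Pf4, a chemokine of platelets and of resident macrophages, stood at 11.4 CPM (7 UMIs in 6 cells) in Sham and 66.9 (56 UMIs in 35 cells) in TAC, a ratio of 5.85 (2.66 to 15.2). It was higher in TAC in class II low macrophages too (2.27) and in all other cells (3.04). Timd4 went from 44.1 to 104 CPM, a ratio of 2.36 (1.52 to 3.78), and had 2.36 in class II low macrophages, and Ltc4s had 2.73 and 2.14. These 3 were the members of the resident macrophage list past 2-fold, out of 24 tested with a median of 0.17. The summed level of the list was 1.16 times higher in the chosen TAC cells (1.13 to 1.20) and 1.20 times in class II low macrophages. Lyve1 had a ratio of 1.79 (1.26 to 2.57) and Apoe 1.64 (1.49 to 1.80), beside 1.85 and 1.63.

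Of the other genes furthest above Sham, Glp2r, the glucagon-like peptide receptor, was seen in 28 Sham cells and 112 TAC cells, with a ratio of 3.62 (2.49 to 5.39) beside 3.49 in class II low macrophages. Insyn2b had 3.39 (2.53 to 4.63) beside 2.33. The unnamed transcripts Gm12353, Gm2245, Gm31243, Gm15261 and Gm47167 had ratios of 3.31 to 3.79 beside 2.41 to 5.20. For these 7 genes the class II low macrophages of TAC were thus past 2-fold higher as well, and for all of them but Gm12353 so were all other cells. Chst11, a chondroitin sulfotransferase, was not: it went from 14.7 CPM (9 UMIs in 7 cells) to 71.7 (60 UMIs in 31 cells), a ratio of 4.88 (2.41 to 11.2), beside 0.565 in class II low macrophages, and 15 of the 60 UMIs lay in 1 cell. The last pair rested on 1 cell each. For the complement gene C7, 44 of 47 TAC UMIs lay in 1 cell, and for the collagen gene Col8a1, 86 of 126 did. Both are genes of fibroblasts, and without the highest cell of each library their ratios of 8.60 and 3.55 became 1.10 and 1.47.

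Among the genes lower in TAC were Zbtb16 and Fkbp5, which glucocorticoids induce. Zbtb16, a zinc finger transcription factor, stood at 1453 CPM (1359 to 1551, seen in 265 of 351 cells) in Sham and 287 (252 to 325, seen in 154 of 425 cells) in TAC, a ratio of 0.20 (0.170 to 0.228). Fkbp5, a chaperone of the glucocorticoid receptor, stood at 1298 and 533, a ratio of 0.41 (0.365 to 0.462). Both were lower in TAC also in class II low macrophages (0.17 and 0.37) and in all other cells (0.35 and 0.45). The glucocorticoid-induced list had a median of -0.62 over 8 genes, with Zbtb16, Fkbp5 and Per1 past 2-fold lower, beside -0.53 and -0.57. Ccnd3, cyclin D3, had 0.44 (0.406 to 0.481) beside 0.37 and 0.53, and Ivns1abp 0.47 beside 0.52 and 0.42. Tef, a clock output factor, had 0.33 (0.201 to 0.527) and the growth factor Nrg2 0.44 (0.348 to 0.549). Nrg2 was past 2-fold lower in class II low macrophages too, whereas Tef was not among the genes past 2-fold there.

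Some of the lower genes belong to cardiomyocytes. Tnnt2, cardiac troponin T, stood at 654 CPM in Sham and 291 in TAC, a ratio of 0.445 (0.378 to 0.523), and the kinase gene Dmpk had 0.30 (0.151 to 0.554). The summed level of 7 cardiomyocyte markers, Tnnt2 among them, in the chosen cells was 2322 and 1362 CPM, a ratio of 0.59 (0.542 to 0.634), beside 0.64 in class II low macrophages and 0.64 in all other cells. The part of cardiomyocyte RNA in the ratios of Tnnt2 and Dmpk was not tested. Strip2 (0.21), Tacc2 (0.33) and the transcripts Gm10134 (0.21) and 9930111J21Rik2 (0.405) completed the 12 lowest genes. Of these, Strip2, Tacc2 and 9930111J21Rik2 were past 2-fold lower in class II low macrophages as well, and Tacc2 also in all other cells.

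**Figure D5:**
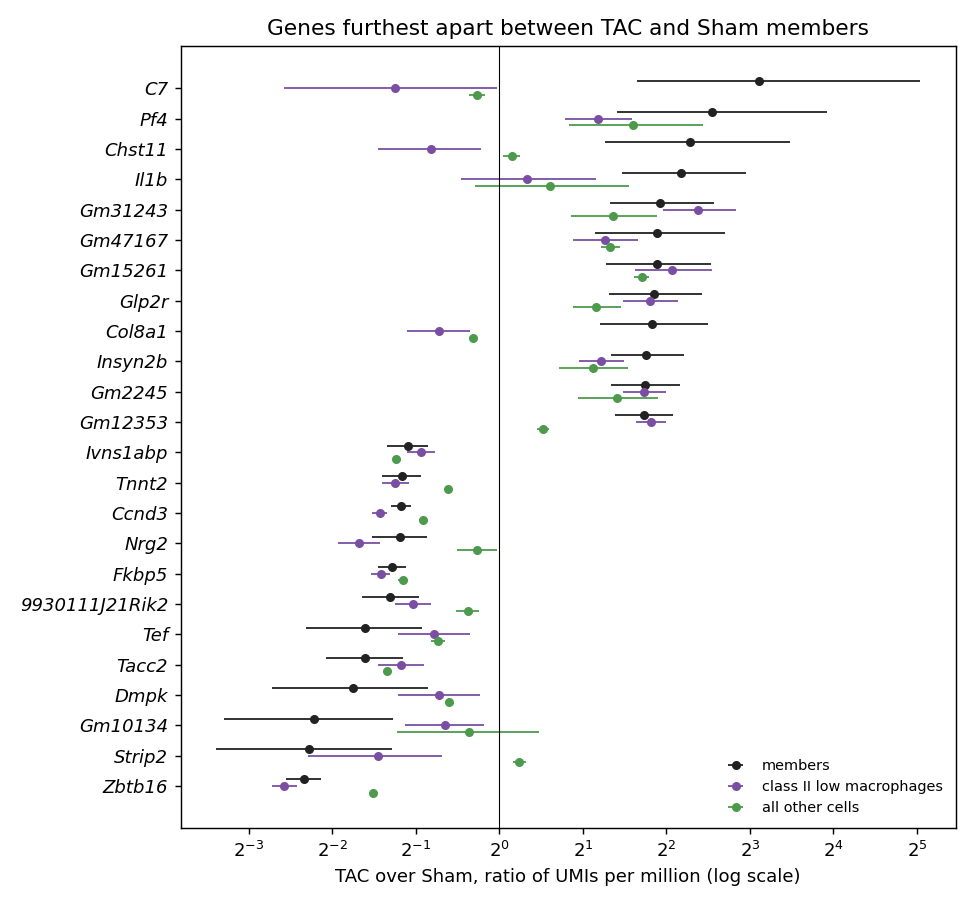
Ratio of TAC to Sham, on a log scale with base 2, of CPM for the 12 genes furthest above and the 12 furthest below Sham in the chosen cells (black), with the same ratio in class II low macrophages (purple) and all other cells (green) and exact conditional 95% intervals. Zbtb16 and Fkbp5 are below 1 in all 3 classes, whereas Il1b is at 4.51 in the chosen cells and 1.26 in class II low macrophages.

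Of the class II presentation list outside the rule, 11 genes reached 50 UMIs, and 0 of 11 were past 2-fold between the libraries, beside 3.23% higher and 1.57% lower of all genes tested, so that a count of 0 in a list of this size is near the background. Their median log2 ratio of TAC to Sham was -0.04, and the summed level of the list was 2693 CPM in Sham and 2662 in TAC, a ratio of 0.99 (0.927 to 1.05). Ciita had 0.95 (0.771 to 1.17), beside 0.55 (0.389 to 0.766) in class II low macrophages, and H2-DMb1 0.72 (0.527 to 0.971). The class I list had a median of -0.08 over 11 genes with 1, H2-Q7, past 2-fold lower (0.48, 0.285 to 0.803), and H2-K1, a classical class I heavy chain, had 0.60 (0.485 to 0.750). In class II low macrophages H2-Q7 had 0.38 and H2-K1 0.58.

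In each of the remaining lists, 0 to 2 genes were past 2-fold between the libraries, beside 3.23% higher and 1.57% lower of all genes tested. The lists are too small for such counts to be set apart from these shares. Of 6 immediate-early genes, with a median of 0.67, Fos had 2.25 (1.21 to 4.45) on 14 and 43 UMIs, beside 0.77 in class II low macrophages. Of 20 myeloid transcription factors, with a median of 0.12, Relb, a subunit of NF-kappaB, had 2.52 (1.47 to 4.53) on 18 and 62 UMIs, beside 1.05. Of 11 interferon response genes, with a median of -0.34, Ifi27l2a was higher (2.13) and Xaf1 lower (0.435), and of 3 heat shock genes, with a median of 0.24, Hsp90ab1 was higher (2.16). Ifi27l2a was past 2-fold higher in all other cells too, and none of these genes was past 2-fold in class II low macrophages. Vegfa, the vascular growth factor, was lower at 0.46 (0.286 to 0.728), beside 0.38, in a growth factor list with a median of -0.02 over 11 genes. The 5 clock genes had a median of -0.45, with Tef past 2-fold lower, and the 5 monocyte genes one of 0.06 with none past 2-fold. The 22 genes of phagocytosis, complement and lipid handling had a median of 0.13 with none past 2-fold, and 1 cell cycle gene was tested (-0.27). The 23 ribosomal protein genes had a median of 0.47, with Rpl6 and Rpl41 past 2-fold higher. The list summed to 1.22 times the Sham level (1.14 to 1.32), beside 1.30 in class II low macrophages.

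The study is about CARD9 in hearts of mice given isoproterenol, a beta-adrenergic agonist. The ratios below are of TAC, another injury, and are not set against the paper's values. CARD9 is an adaptor that joins BCL10 and MALT1 downstream of C-type lectins, and these genes were sparse in the chosen cells. Card9 had 19 UMIs in Sham and 22 in TAC, 31.0 (18.7 to 48.4) and 26.3 (16.5 to 39.8) CPM, a ratio of 0.85 (0.438 to 1.66), and class II low macrophages held it at 35.3 and 36.6. Malt1 stood at 70.2 and 77.6, a ratio of 1.11 (0.741 to 1.67). Bcl10 stood at 94.7 (58 UMIs) and 39.4 (33 UMIs), a ratio of 0.42 (0.263 to 0.649), beside 0.71 in class II low macrophages and 0.90 in all other cells. It was the only gene past 2-fold among the 9 tested of the CARD9 list, whose median was -0.13. Clec7a had 0.68 (0.383 to 1.20), and in class II low macrophages it was past 2-fold lower in TAC. Otud1, which encodes a deubiquitinase of CARD9, had 1 UMI in Sham and 0 in TAC, and at this depth no difference was detectable. Usp15, which the paper names beside it, was detected. In Sham it stood at 315 CPM in the cells with Ccr2 (27 UMIs) and 260 in those without (137 UMIs), a ratio of 1.21 (0.770 to 1.84). In TAC it stood at 216 (26 UMIs) and 246 (176 UMIs), a ratio of 0.879 (0.559 to 1.33).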

How the data were processed

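Hearts of Sham and TAC mice were dissociated and made into 1 library each on the 10x Chromium platform with a 3-prime kit, version 3 by the labels. The authors deposited raw UMI counts for each gene in each barcode, made with Cell Ranger (7.1.0 by the file header and the processing notes) and not normalized. The genome build and the counting of intron reads are not given in the sources used here. The matrices held 28146691 (Sham) and 29108986 (TAC) UMIs in 9935 and 9932 barcodes, with medians of 1964 and 2143 UMIs, and shared 32 barcode sequences, of which 1 was in a chosen cell.

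The chosen cells and the gene lists were set with earlier results of these data known. The rule was applied to raw counts, 1 barcode per library fell under 200 detected genes, and Scrublet (scanpy 1.11.5, expected rate 0.8% per 1000 cells) was used to mark doublets, which were kept. UMIs were summed per class and given per 1000000 UMIs (CPM), with exact Poisson intervals, exact Clopper-Pearson intervals for shares and exact conditional binomial intervals for ratios (numpy 2.4.6, scipy 1.17.1, pandas 2.3.3, Python 3.11.15), all at 95%. A count of 0 allows 3 UMIs. Genes needed 50 UMIs over both groups. With 1 library per condition no test was run.

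Named were the presentation genes with at least 20 UMIs in the chosen cells, the 12 highest and 12 lowest genes of each comparison by the interval bound nearest to 1 (without rule, mitochondrial and hemoglobin genes, and for TAC over Sham with at least 4 UMIs in the lower library), genes from among the 4 most abundant of each other list and those past 2-fold with an interval without 1, and the genes of the study. Rankings by Ccr2, and values at limits, were chosen after the data were seen. Promoter windows came from RefSeq (GRCm38.p6), where a window was found for 20 of 27 class II genes. Only the windows printed above are described, so they do not show how many of the others hold the motif. The rule was tried on cells built to lie at its limits, and the ratios and their intervals on simulated independent counts. Those counts did not hold many UMIs of a gene in 1 cell, as some genes here did, so the intervals were not checked for that case. The thinning and the split by Ccr2 were not simulated.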

Additional observations from a re-analysis of the deposited data

Results flagged for a closer look

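There were 3 genes that had a ratio of TAC to Sham on one side of 1 in the chosen cells and on the other side in class II low macrophages, with intervals that left out 1 in both classes, and in each case the difference between the classes was not tested. Ipcef1 had 1.46 (1.08 to 2.01) in the chosen cells and 0.651 (0.435 to 0.968) in class II low macrophages. Chst11 had 4.88 (2.41 to 11.2) and 0.565 (0.366 to 0.862), with 15 of its 60 TAC UMIs in 1 cell. Col8a1 had 3.55 (2.31 to 5.64) and 0.605 (0.464 to 0.786), with 86 of its 126 TAC UMIs in 1 cell.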

How the results depend on the processing

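No paired analysis was possible because Sham and TAC are 1 library each, which also leaves no replicate to be left out. Of the shares and gene counts under the alternatives, 94 kept within their interval or within 1.5 times the count and 38 did not. The order of the Sham and TAC shares of all cells turned in 1 of them, which left out cells with B cell, T cell or dendritic cell markers. A limit of 3 class II or Ccr2 UMIs gave shares of all cells and of macrophages of 2.56% and 18.8% in Sham and 3.23% and 24.1% in TAC, a limit of 1 gave 5.63%, 41.4%, 6.03% and 45.0% with 11 genes lower than class II low macrophages in both libraries, and thinning to 1000 UMIs gave 2.10%, 17.0%, 2.56% and 20.7% with 43 genes higher and 34 lower in TAC. The TAC share was the larger in each of these. The share of all cells was 3.06% and 3.70% with at least 5 macrophage UMIs, 3.06% in Sham with Ryr2 and Myh6 under 0.3%, and 3.13% and 3.82% without macrophages holding fibroblast or endothelial UMIs, an alternative added after the data were seen. Leaving out cells with a B cell, T cell or dendritic cell marker UMI, Bank1 included, gave 2.39% and 2.34%, where the share of TAC was no longer the larger (of macrophages it was, with 25.5% and 34.1%), with 53 genes higher and 50 lower in TAC and 10 higher and 15 lower than class II low macrophages. With lineage-restricted markers alone, added after the data were seen, it was 3.39% and 4.20% (25.1% and 30.9% of macrophages). A minimum of 20 UMIs gave 527 higher and 316 lower in TAC and 54 and 57 in the other comparison, a minimum of 100 gave 48 and 27 with 12 lower in the other, no minimum gave 4758, 3295, 669 and 1530, and means of each cell's own level gave 35 lower. The counts thus follow the minimum. For named genes, the ratio of TAC to Sham kept its value in 793 cases, moved in 24 and turned in 4: C7 was 0.362 without barcodes called by Scrublet and 0.547 without the 5 deepest cells per library, and Col8a1 was 0.926 after thinning and 0.776 without cells with B cell, T cell or dendritic cell markers. Il1b ranged from 3.62 to 5.62, Pf4 from 2.82 to 7.19 and Chst11 from 2.91 to 5.22 (both lowest with a limit of 1 class II or Ccr2 UMI), Ciita over class II low macrophages from 3.73 to 6.46 in Sham and from 7.09 to 10.5 in TAC, and Zbtb16 from 0.186 to 0.247. Of the ratios to class II low macrophages, 68 moved, 1179 did not and 0 turned. Some ratios still crossed 1 under an alternative without being counted as turned. Over class II low macrophages, Cd40 in Sham went from 1.20 to as low as 0.844, and H2-DMa in TAC from 1.38 to as low as 0.700. The ratio of TAC to Sham of Card9 went from 0.847 to as high as 1.30. Leaving out the highest cell, also added later, moved Cxcl2 in TAC to 1.98 and Vcan in Sham to 1.18. With 1 UMI often the only one of a gene in a cell, depth limits which cells were chosen.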
